A study of Mus musculus with 18 samples.

Results

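The transcripts of 10 enzymes that write, copy or remove DNA methylation and Polycomb marks were followed through 18 RNA sequencing libraries of mouse bone marrow mesenchymal stem cells (MSCs), stromal cells that attach and expand when flushed marrow is plated. The members were the rows named Dnmt1, Dnmt3a, Dnmt3b, Uhrf1, Tet1, Tet2, Tet3, Ezh1, Ezh2 and Bmi1 in a table of 27179 genes. All 10 were found and all 10 passed the filter on low values that left 14353 genes for testing, set at an average of 10 normalized counts across the 18 libraries. Young MSCs came from mice of 6 weeks and old MSCs from mice of 18 to 24 months, which the study describes as male and the labels as C57BL6, and each group had 6 libraries. Rejuvenated old MSCs, also with 6 libraries, were old MSCs that shared a well with young MSCs for 7 days, separated by a 0.4 µm membrane that passes soluble factors but not cells. Old MSCs were plated at 100000 cells, alone or with the young MSCs added across the membrane. Old MSCs sharing a well with further old MSCs were not analysed here, so the effect of a second cell layer and that of its young donors cannot be told apart. The labels call the 6 libraries of a group biological replicates. Whether each came from its own animal is not given in the sources used here, and p-values measure the spread between these libraries.

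DNA methylation is set on unmethylated CpG sites by the de novo methyltransferases Dnmt3a and Dnmt3b, and is copied to the new strand after replication by Dnmt1, which Uhrf1 brings to half-methylated sites. The Tet dioxygenases oxidise methylated cytosine as the opening step of its removal. The Polycomb proteins silence genes through histones: Ezh1 or Ezh2 is the catalytic subunit of Polycomb repressive complex 2 (PRC2), which methylates lysine 27 of histone H3, and Bmi1 belongs to PRC1, which ubiquitinates histone H2A. Bmi1 and Ezh2 are known for holding the Ink4 locus silent in dividing cells, and Dnmt1, Uhrf1 and Ezh2 are known to be transcribed most in cycling cells.

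The E2F factors, which drive genes of DNA replication, bind 8-letter sites, and 4 spellings of such a site (TTTCCCGC, TTTCGCGC, TTTGCCGC and TTTGGCGC) were searched on both strands of the RefSeq promoter windows of GRCm38.p6 (mm10). A window runs from 250 bases before an annotated start to 50 bases after it. The members had 15 windows, and 3 of them held a match: window 3 of Dnmt1, window 2 of Uhrf1 and the window of Ezh2. Of all 32851 windows in the table, 2.26% held one. That share is not matched for CpG content, although every spelling holds a CpG, so the 2 shares are not like for like. No other motif was searched, the spellings were chosen with the expression results known, and a match is a description of the letters only. The 3 windows with a match are shown because their genes are the replication-linked members, and that of Tet3 because Tet3 had the clearest difference after co-culture. Each is printed 5′ to 3′ on the strand of its gene, with the match in capitals.
Dnmt1, chr9:20952574-20952873, minus strand: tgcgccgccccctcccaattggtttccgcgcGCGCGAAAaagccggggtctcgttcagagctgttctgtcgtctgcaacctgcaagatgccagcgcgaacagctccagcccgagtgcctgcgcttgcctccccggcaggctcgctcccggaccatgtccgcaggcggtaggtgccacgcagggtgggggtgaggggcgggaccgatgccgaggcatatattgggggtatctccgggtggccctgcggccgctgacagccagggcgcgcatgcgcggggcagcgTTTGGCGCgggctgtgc
Uhrf1, chr17:56304063-56304362, plus strand: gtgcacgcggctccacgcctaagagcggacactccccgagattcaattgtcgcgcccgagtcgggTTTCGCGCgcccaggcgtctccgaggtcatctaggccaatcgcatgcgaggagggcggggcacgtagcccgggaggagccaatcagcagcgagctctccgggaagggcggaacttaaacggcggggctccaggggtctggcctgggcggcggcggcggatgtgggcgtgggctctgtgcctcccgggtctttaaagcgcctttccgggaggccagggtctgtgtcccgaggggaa
Ezh2, chr6:47594981-47595280, minus strand: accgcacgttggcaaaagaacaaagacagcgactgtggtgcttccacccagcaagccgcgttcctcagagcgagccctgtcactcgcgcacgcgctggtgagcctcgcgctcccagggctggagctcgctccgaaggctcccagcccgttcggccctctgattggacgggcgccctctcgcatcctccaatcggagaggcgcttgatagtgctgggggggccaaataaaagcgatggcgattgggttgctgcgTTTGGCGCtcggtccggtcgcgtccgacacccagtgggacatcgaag
Tet3, chr6:83441629-83441928, minus strand: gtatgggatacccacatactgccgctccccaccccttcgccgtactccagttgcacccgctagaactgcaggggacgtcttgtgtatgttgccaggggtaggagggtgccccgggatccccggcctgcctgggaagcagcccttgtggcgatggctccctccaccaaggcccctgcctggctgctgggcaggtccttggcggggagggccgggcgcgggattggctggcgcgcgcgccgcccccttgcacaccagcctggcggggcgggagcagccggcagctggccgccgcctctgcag
Counted from the start site as base 1, the Dnmt1 matches began at bases -219 and 34, that of Uhrf1 at -185 and that of Ezh2 at 4. The windows also differed in CpG content. Dnmt1 and Uhrf1 had 33 CpG each in the windows shown, Ezh2 had 31 and Tet3 had 22, against a median of 7 over all windows. Over the 15 windows of the members the number ran from 2 in window 1 of Dnmt1 to 57 in that of Tet2.

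The libraries held 22936251 to 29559194 reads on genes. The 4 Y-linked genes Ddx3y, Uty, Eif2s3y and Kdm5d had at most 3 reads each in every young library, against a summed level of 5035 to 5604 normalized counts in old and 4898 to 5980 in rejuvenated old MSCs. The young libraries thus went against the stated male sex, yet Xist, the transcript of an inactive X chromosome, was also low in them, at 21.2 to 41.2 against 1.97 to 14.4 in old MSCs. Whole chromosomes were shifted as well, with a median log2 fold change of young minus old MSCs of -0.75 on chromosome 16, -0.69 on chromosome 1 and 0.61 on chromosome 7. In any comparison with young MSCs, age cannot be told apart from these other differences of the young libraries. The stromal markers were present in all groups (summed 322363 to 471001, mostly Col1a1, Col1a2 and Cxcl12), except that Thy1 had at most 3 reads in every old library and was at 0 to 0.951 normalized counts in all rejuvenated old libraries but replicate 1. Their levels were not alike, with means in young and old MSCs of 163 and 7340 for Eng, 295 and 15.9 for Nt5e and 9227 and 197374 for Cxcl12. All 12 passed the limma test below between young and old MSCs, 5 higher and 7 lower in young MSCs, against 41.6% and 44.1% of all genes. The 14 macrophage markers summed to 956 to 1074 in young MSCs, 14991 to 18711 in old MSCs and 15024 to 18317 in rejuvenated old MSCs, and Ptprc and Adgre1 were at 0 reads in all young libraries. Osteoblast markers summed to 4525 to 4776, 114701 to 123428 and 66474 to 94401, and adipocyte markers to 16838 to 19369, 43187 to 45586 and 47588 to 60640, in the same order. Spp1 made up most of the former and Lpl most of the latter. After co-culture 6 of 8 osteoblast markers were lower and 1 (Alpl) was higher in the limma test below. Of 6 adipocyte markers tested 4 were higher and 1 (Plin1) was lower, where 21% of all genes were higher and 20.6% lower. The calls of Alpl and Plin1 were lost without replicate 1 of rejuvenated old MSCs. In bulk RNA, fewer cells of a type and less RNA per cell cannot be told apart, and the part of these differences in the members' levels was not tested. Replicate 1 of rejuvenated old MSCs stood apart: 58 transcripts with at most 3 reads in every old library and a young mean of at least 100 normalized counts reached 2.01% of the young mean there, against 0.139% to 0.2% in the other 5 rejuvenated old libraries. Results that turn on it are given without it.

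Co-culture with young MSCs moved few of these enzymes. Relative to old MSCs, Tet3 fell and Uhrf1 rose in rejuvenated old MSCs, and the other 8 members did not pass the test. The count of 2 of 10 stands against 41.6% of all genes tested, 21% higher and 20.6% lower (limma on log2 of the normalized count plus 1, Benjamini-Hochberg adjusted p under 0.05). No member had old and rejuvenated old libraries that did not overlap, as 22% of all genes did. The count was 1 without replicate 1 of rejuvenated old MSCs and in 13 of 26 alternatives in all, where Uhrf1 did not pass. The median size of the members' log2 fold change was 0.07, against 0.15 over all genes, and the median itself was 0.05 against 0.01. Between young and old MSCs, 9 of the 10 passed, against 85.7% of all genes. Dnmt3b, Ezh1 and Ezh2 were higher in young MSCs, 3 of 10 against 41.6% of all genes. Dnmt1, Dnmt3a, Uhrf1, Tet1, Tet2 and Bmi1 were lower, 6 of 10 against 44.1%, and Tet3 did not pass. In those 9 the young and old libraries did not overlap, which held for 73.9% of all genes. The median size of the log2 fold change was 0.51 for the members and 0.60 for all genes, and the median itself was -0.40 against -0.02. Between young and rejuvenated old MSCs all 10 passed and did not overlap, against 85.6% and 70.5% of all genes, with 4 higher in young MSCs (41.5% of all genes), since Tet3 joined the 3, and 6 lower (44.1%). These comparisons share libraries in pairs, and shares near those of all genes say nothing particular of the members.

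**Figure D1:**
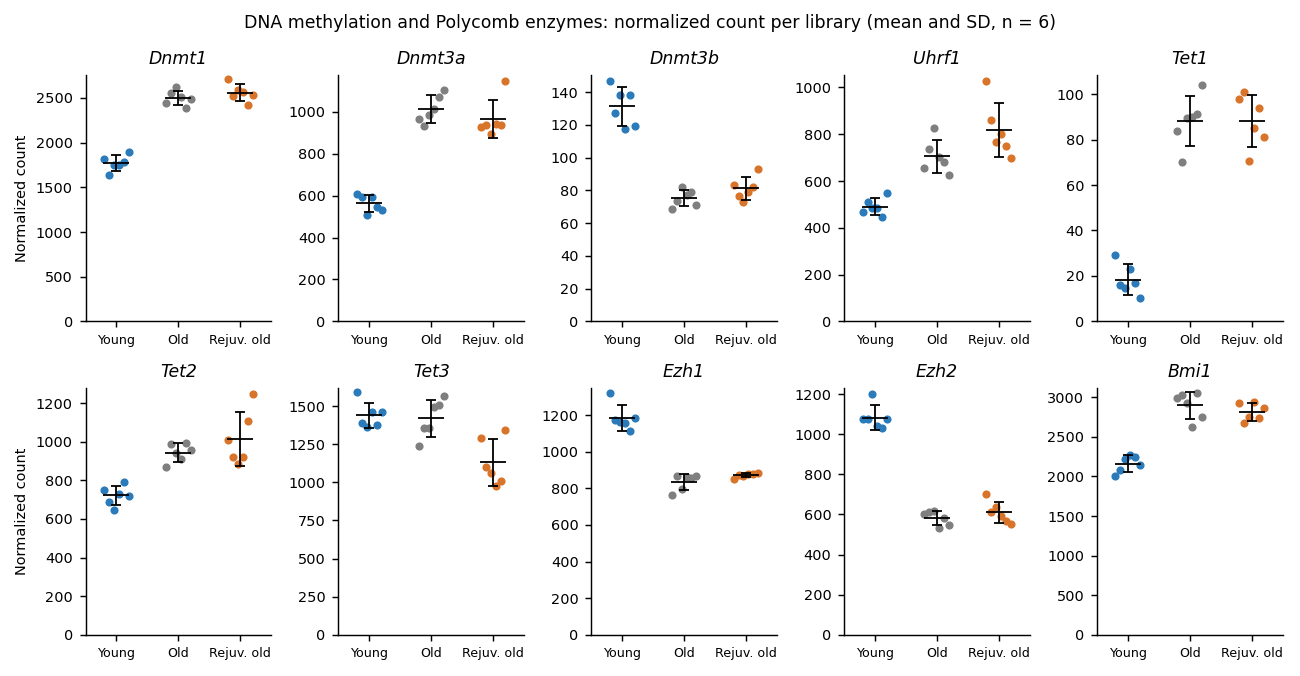
Normalized counts (vertical axes, each from 0) of the 10 members in the 6 young, 6 old and 6 rejuvenated old libraries, 1 point per library in replicate order, with the mean and SD in black. Old and rejuvenated old points overlap in every panel, and young points lie clear of the old ones in every panel but that of Tet3.

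**Figure D2:**
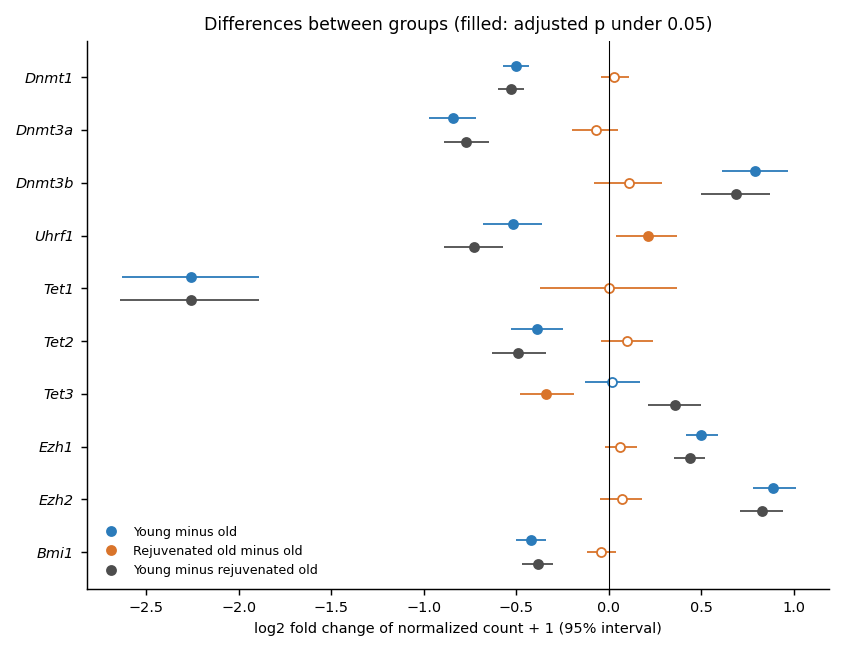
Difference in log2(normalized count + 1) between groups (horizontal axis) with its 95% interval for each member, from the limma fit over all 14353 genes, filled where the adjusted p was under 0.05. The points for rejuvenated old minus old MSCs lie between -0.34 and 0.21, and those for young minus old MSCs run from -2.26 for Tet1 to 0.89 for Ezh2.

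Among the copying enzymes, Dnmt1 was lower in young MSCs and about level between old and rejuvenated old MSCs. Dnmt1 (chr9:20907206-20959888, minus strand) had a lowest, median and highest normalized count of 1636, 1766 and 1895 in young MSCs, 2391, 2495 and 2622 in old MSCs and 2415, 2552 and 2707 in rejuvenated old MSCs. The 6 young libraries were below the 12 others, and 1 rejuvenated old library lay above the old range. The log2 fold change was -0.50 (SE 0.03, limma adjusted p = 5.58e-12) for young minus old MSCs and 0.03 (SE 0.03, 95% interval -0.04 to 0.11, limma adjusted p = 0.49) for rejuvenated old minus old MSCs. Its level per kilobase of exon was 240 ± 11.7 in young MSCs, 339 ± 11.0 in old MSCs and 347 ± 12.9 in rejuvenated old MSCs (SD, n = 6), second among the members after Bmi1.

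Uhrf1, the partner that guides Dnmt1 to replicated DNA, was the one member that rose after co-culture, by a margin close to the threshold. Uhrf1 (chr17:56303337-56323486, plus strand) had a lowest, median and highest normalized count of 446, 484 and 549 in young MSCs, 626, 692 and 825 in old MSCs and 700, 784 and 1026 in rejuvenated old MSCs. Of the 6 rejuvenated old libraries, replicate 1 at 1026 and replicate 2 at 861 lay above the whole old range and the other 4 lay within it. The mean was 15.4% higher than in old MSCs, a log2 fold change of 0.21 (SE 0.08, 95% interval 0.04 to 0.37, limma adjusted p = 0.0378). Without replicate 1 of rejuvenated old MSCs, the library with young transcripts, it was 0.14 and the call was lost (limma adjusted p = 0.106). Over 26 alternative settings the adjusted p ran from 0.0126 to 0.116, and the call was lost in 13 of them. Young MSCs were lower than old MSCs by a log2 fold change of -0.52 (SE 0.08, limma adjusted p = 1.77e-06) and lower than rejuvenated old MSCs by -0.73 (SE 0.08, limma adjusted p = 9.88e-09).

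The de novo enzymes differed in opposite directions between young and old MSCs. Dnmt3a (chr12:3801559-3914443, plus strand) had a lowest, median and highest normalized count of 508, 569 and 607 in young MSCs, 931, 999 and 1104 in old MSCs and 894, 936 and 1145 in rejuvenated old MSCs. Dnmt3b (chr2:153649411-153687730, plus strand) had 117, 133 and 147 in young MSCs, 68.8, 75.6 and 81.9 in old MSCs and 73.3, 80.6 and 93.4 in rejuvenated old MSCs. Young libraries were all below the others for Dnmt3a and all above them for Dnmt3b, while old and rejuvenated old libraries overlapped for both. The log2 fold change of young minus old MSCs was -0.84 for Dnmt3a (SE 0.06, limma adjusted p = 5.21e-12) and 0.79 for Dnmt3b (SE 0.09, limma adjusted p = 1.83e-08). For rejuvenated old minus old MSCs the 95% interval was -0.20 to 0.05 for Dnmt3a and -0.08 to 0.29 for Dnmt3b (limma adjusted p = 0.349 and 0.362). Dnmt3a lies on chromosome 12, where the 496 genes tested had a median log2 fold change of -0.46 in young minus old MSCs. With each chromosome centred on its own median, the value for Dnmt3a was -0.37 (limma adjusted p = 6.66e-06). An antisense transcript, Dnmt3aos, shares 0.8% of the exon bases of Dnmt3a, and whether strand was used in counting is not stated.

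The Tet enzymes showed 3 patterns. Tet1 was scarce in young MSCs and higher in both old groups, Tet2 was moderately lower in young MSCs, and Tet3 was about level between young and old MSCs but lower after co-culture. Tet1 (chr10:62804570-62887469, minus strand) had a lowest, median and highest normalized count of 10.3, 16.5 and 29.4 in young MSCs, 69.9, 89.7 and 104 in old MSCs and 70.4, 89.5 and 101 in rejuvenated old MSCs. The young libraries held 10 to 27 reads of it, so its level there is the least precise among the members, with a coefficient of variation of 37.1%. Young MSCs were 4.79-fold lower than old MSCs, a log2 fold change of -2.26 (SE 0.18, limma adjusted p = 5.31e-11), the largest difference among the 10 members. Co-culture left a log2 fold change of 0.00, with a 95% interval of -0.37 to 0.37 that leaves moderate changes either way undetectable (limma adjusted p = 0.995).

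Tet2 (chr3:133463677-133545136, minus strand) had a lowest, median and highest normalized count of 647, 725 and 790 in young MSCs, 870, 950 and 994 in old MSCs and 884, 967 and 1249 in rejuvenated old MSCs. All young libraries lay below the others, and 3 rejuvenated old libraries lay above the old range. The log2 fold change was -0.39 (SE 0.07, limma adjusted p = 1.78e-05) for young minus old MSCs and 0.10 (SE 0.07, 95% interval -0.04 to 0.24, limma adjusted p = 0.272) for rejuvenated old minus old MSCs.

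Tet3 (chr6:83362373-83457208, minus strand) had a lowest, median and highest normalized count of 1365, 1424 and 1589 in young MSCs, 1240, 1426 and 1567 in old MSCs and 977, 1079 and 1345 in rejuvenated old MSCs. Among rejuvenated libraries, replicates 2 to 5 lay between 977 and 1100, below every old and every young library, while replicate 1 at 1288 and replicate 6 at 1345 lay inside the old range. The mean fell by 20.7% after co-culture, a log2 fold change of -0.34 (SE 0.07, 95% interval -0.48 to -0.19, limma adjusted p = 0.000603). This held in all 26 alternatives, with a log2 fold change from -0.39 to -0.30 and an adjusted p from 2.17e-05 to 0.00251. Without replicate 1 of rejuvenated old MSCs it was -0.38 (limma adjusted p = 0.000176). Young and old MSCs differed by 0.02, with a 95% interval of -0.13 to 0.17 (limma adjusted p = 0.783), so rejuvenated old MSCs were farther from young MSCs in Tet3 than old MSCs were, at a log2 fold change of 0.36 for young minus rejuvenated old MSCs (SE 0.07, limma adjusted p = 7.55e-05). Dnmt3a, Tet2 and Tet3 are among the 282 genes tested with at least 16 kb of exons. In rejuvenated old minus old MSCs these long genes had a median log2 fold change of -0.07, with 34.4% of them lower and 11.3% higher, against a median of 0.10 for the 2124 genes under 2 kb. Replicate 6 of rejuvenated old MSCs, in which all 3 of these members were highest of their group, lay 0.11 above its group in the long genes, and replicate 5 lay 0.10 below it. The part of length in the Tet3 difference was not tested.

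Both PRC2 catalytic subunits were higher in young MSCs, Ezh2 more so than Ezh1, and neither passed the test after co-culture. Ezh2 (chr6:47530274-47595270, minus strand), the subunit typical of dividing cells, had a lowest, median and highest normalized count of 1030, 1076 and 1198 in young MSCs, 534, 594 and 615 in old MSCs and 554, 604 and 700 in rejuvenated old MSCs. Ezh1 (chr11:101191115-101226463, minus strand), which is common in resting cells, had 1116, 1167 and 1322 in young MSCs, 767, 859 and 869 in old MSCs and 854, 876 and 887 in rejuvenated old MSCs. Young libraries lay above all others for both genes. The log2 fold change of young minus old MSCs was 0.89 for Ezh2 (SE 0.06, limma adjusted p = 4.68e-13) and 0.50 for Ezh1 (SE 0.04, limma adjusted p = 9.69e-11). For rejuvenated old minus old MSCs it was 0.07 for Ezh2 (95% interval -0.05 to 0.18, limma adjusted p = 0.348) and 0.06 for Ezh1 (95% interval -0.02 to 0.15, limma adjusted p = 0.237). Ezh1 in rejuvenated old MSCs varied least of all members in any group, with a coefficient of variation of 1.35%. A noncoding transcript on the other strand, Gm26625, shares 2.6% of the exon bases of Ezh2.

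Bmi1, the PRC1 member, was lower in young MSCs. Bmi1 (chr2:18677018-18686629, plus strand) had a lowest, median and highest normalized count of 2011, 2180 and 2277 in young MSCs, 2629, 2960 and 3059 in old MSCs and 2674, 2807 and 2937 in rejuvenated old MSCs. The young libraries lay below all others, and all rejuvenated old libraries lay within the old range. The log2 fold change was -0.42 (SE 0.04, limma adjusted p = 1.46e-09) for young minus old MSCs and -0.04 (SE 0.04, 95% interval -0.12 to 0.04, limma adjusted p = 0.459) for rejuvenated old minus old MSCs. Bmi1 had the highest level per kilobase of exon of the 10 members in every group, at 544 ± 26.2 in young MSCs, 729 ± 42.8 in old MSCs and 709 ± 27.8 in rejuvenated old MSCs (SD, n = 6). At the other end stood Dnmt3b, at 25.7 ± 2.31, 14.8 ± 0.975 and 15.9 ± 1.37, and Tet1, at 1.19 ± 0.442, 5.70 ± 0.717 and 5.71 ± 0.748. Lengths were the union of all annotated exons, so a gene that uses few of its exons here is understated.

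Ratios between enzymes of like function, taken per kilobase of exon within each library, showed how the balance differed. The ratio of Dnmt3a to Dnmt3b was 1.32 ± 0.154 in young MSCs, 4.13 ± 0.374 in old MSCs and 3.64 ± 0.148 in rejuvenated old MSCs (SD, n = 6). It was thus lower after co-culture as well, by 0.18 on the log2 scale (a difference of -0.18, two-sided exact permutation test p = 0.00866, adjusted p = 0.013 over 12 ratio tests), though neither gene passed its own test. Without replicate 1 of rejuvenated old MSCs this difference was -0.16 (exact permutation test p = 0.0173). In rejuvenated old MSCs the ratio ran only from 3.42 to 3.76, while counting error alone gives 10.9% for Dnmt3b. That spread is narrower than the counts resolve, and the test rests in part on it. Dnmt3a is among the genes with at least 16 kb of exons, which had a median of -0.07 after co-culture. Dnmt3b is among those of 4 to 8 kb, at -0.01. The part of length in this difference was not tested. The ratio of Tet3 to Tet2 was 2.02 ± 0.139 in young MSCs, 1.52 ± 0.113 in old MSCs and 1.13 ± 0.131 in rejuvenated old MSCs. All 6 rejuvenated old libraries lay between 0.921 and 1.29, below the old range of 1.39 to 1.66, with a log2 difference of -0.43 (exact permutation test p = 0.00216, adjusted p = 0.00433), and p = 0.00216 is the smallest these groups allow. Young MSCs were above old MSCs by 0.41 in this ratio (exact permutation test p = 0.00216, adjusted p = 0.00433), so co-culture went the other way from the young level.

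The ratio of Ezh2 to Ezh1 was 1.02 ± 0.0778 in young MSCs, 0.778 ± 0.0779 in old MSCs and 0.781 ± 0.0785 in rejuvenated old MSCs (SD, n = 6). Young minus old MSCs differed by 0.39 on the log2 scale (exact permutation test p = 0.00216, adjusted p = 0.00433), and rejuvenated old minus old MSCs by 0.00 (exact permutation test p = 0.97, adjusted p = 0.97). The ratio of Dnmt1 to Uhrf1 was 2.10 ± 0.166, 2.06 ± 0.153 and 1.83 ± 0.198 in young, old and rejuvenated old MSCs. The last was lower than in old MSCs by a log2 difference of -0.17 that did not pass after adjustment (exact permutation test p = 0.0498, adjusted p = 0.0597).

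**Figure D3:**
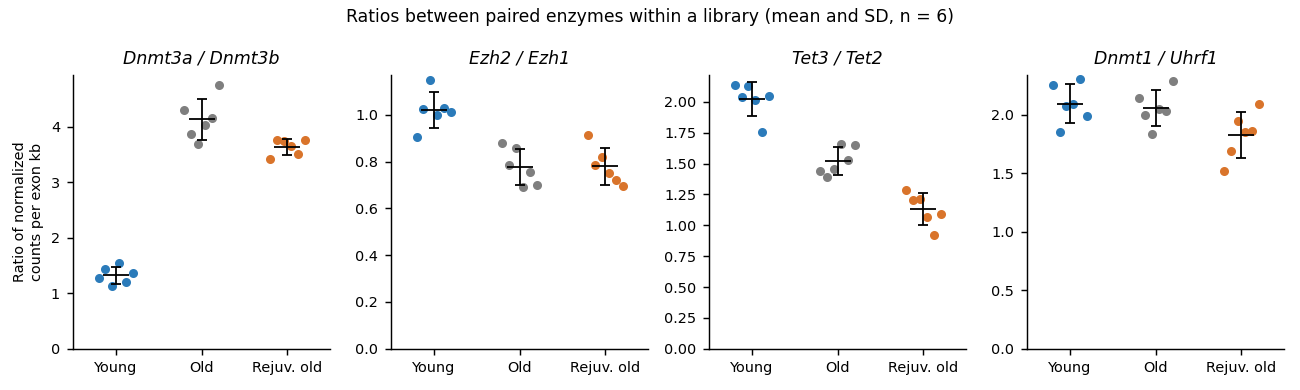
Ratio of normalized counts per kilobase of exon (vertical axes, each from 0) for 4 pairs of enzymes, 1 point per library, with the mean and SD of 6 libraries in black. The Tet3 to Tet2 ratio separates all 3 groups, and the Dnmt3a to Dnmt3b ratio is 4.13 in old against 1.32 in young MSCs.

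Some genes of DNA replication and division passed after co-culture, as Uhrf1 did. Of 25 proliferation genes, 11 were higher and 1 (E2f2) was lower after co-culture, against 21% and 20.6% of all genes, 13 did not pass, and the 25 summed to 22315 to 25810 normalized counts in old and 25134 to 29393 in rejuvenated old MSCs. Their median log2 fold change was 0.20, and without replicate 1 of rejuvenated old MSCs 10 were higher and 1 was lower. Cdk1, the mitotic kinase, rose from 1451 ± 99.7 to 1942 ± 127 (SD, n = 6, log2 fold change 0.42, limma adjusted p = 6.35e-07), and Rrm2, a subunit of ribonucleotide reductase, from 4415 ± 276 to 5735 ± 404 (0.38, limma adjusted p = 0.000527). Pcna, the replication clamp, rose by 0.14 (limma adjusted p = 0.00202), and Mki67 did not pass at 0.14 (limma adjusted p = 0.28). Top2a, a topoisomerase of dividing cells, was at 0.24 (limma adjusted p = 0.0339), a call that was lost without replicate 1 of rejuvenated old MSCs (adjusted p = 0.0741). In young minus old MSCs, 6 of the 25 were higher and 13 lower, against 41.6% and 44.1% of all genes. Rrm2 was the farthest down at -4.10, while Cdt1 stood at 1.40, Mcm3 at 0.93 and Mki67 at 0.31. Means and sums of the 25 thus lean on Rrm2 in any comparison with young MSCs.

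Within rejuvenated old MSCs, Ezh2 followed the mean log2 level of these 25 genes. Across the 6 libraries Pearson's r was 0.996 for Ezh2 (exact permutation p = 0.00139, adjusted p = 0.0208 over 30 relations, the smallest p that 720 orders allow) and -0.980 for Ezh1 (exact permutation p = 0.00139, adjusted p = 0.0208). Spearman's rho was 1 and -1 (exact permutation p = 0.00278 for both). Without the 2 libraries farthest from the median, r was 0.982 and -0.887. Ezh1 spanned only 854 to 887 normalized counts, a coefficient of variation of 1.35% where counting error alone gives 3.31%, so its order among these libraries is not resolved at this depth. The same relation in old MSCs had r = 0.778 for Ezh2 (exact permutation p = 0.1, adjusted p = 0.3) and -0.386 for Ezh1 (exact permutation p = 0.446, adjusted p = 0.669), and none of the other 28 relations passed after adjustment. For Uhrf1 in rejuvenated old MSCs r was 0.888 and rho 0.829 (exact permutation p = 0.0222 and 0.0583, adjusted p = 0.222 for r), and r without the 2 farthest libraries was 0.249, so that relation rested on them. Whether the relations differ between groups was not tested.

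**Figure D4:**
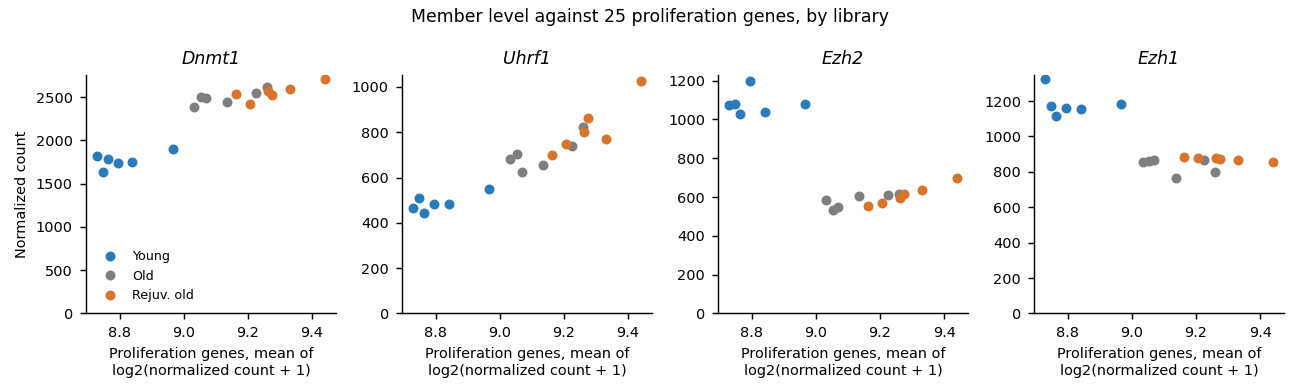
Normalized count of Dnmt1, Uhrf1, Ezh2 and Ezh1 (vertical axes, each from 0) against the mean of log2(normalized count + 1) over 25 proliferation genes (horizontal axes), 1 point per library coloured by group. Ezh2 climbs with the proliferation genes from 554 to 700 in rejuvenated old MSCs, while the young libraries hold 1030 to 1198 at the lowest values of this mean. The low mean of the young libraries leans on Rrm2, at -4.10 in young minus old MSCs, where 6 of the 25 genes were higher and 13 lower.

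Most other subunits of PRC2 were higher in young MSCs. Of 10 other PRC2 subunits and partners, 7 were higher and 2 lower in young than in old MSCs, against 41.6% and 44.1% of all genes, with a median log2 fold change of 0.49. Eed, the subunit that binds the methylated histone, was at 1327 ± 61.4 in young and 696 ± 44.5 in old MSCs (SD, n = 6, log2 fold change 0.93), and Epop, which limits the complex, at 185 ± 11.3 and 93.3 ± 6.96 (0.98). After co-culture the median was -0.04 and 3 of the 10 were lower, against 20.6% of all genes. These were Epop at -0.28 (limma adjusted p = 0.0247), Jarid2, which helps recruit the complex, at -0.18 (limma adjusted p = 0.00745), and Aebp2. Without replicate 1 of rejuvenated old MSCs 4 were lower.

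PRC1 subunits went both ways, at counts near the shares of all genes, which say nothing particular of PRC1. Of 22 other subunits, 8 were higher and 11 lower in young than in old MSCs (median -0.12), against 41.6% and 44.1% of all genes. After co-culture 5 were higher and 5 lower (median -0.01), against 21% and 20.6%. Cbx7, which binds the H3 lysine 27 mark, was at 1170 ± 70.0 in young MSCs, 336 ± 32.5 in old MSCs and 436 ± 74.2 in rejuvenated old MSCs, a rise of 0.36 after co-culture (SD, n = 6, limma adjusted p = 0.00207). Pcgf5, a paralogue of Bmi1, was at 507 ± 43.0, 153 ± 28.5 and 220 ± 25.8, a rise of 0.54 (limma adjusted p = 0.000254). Its relative Pcgf3 went the other way after co-culture, at -0.36 (limma adjusted p = 8.19e-05). The others that fell were Bcor at -0.33, Phc2 at -0.32, Rybp at -0.31 and Scmh1 at -0.25. Rnf2, the ubiquitin ligase that works with Bmi1, was lower in young than in old MSCs like Bmi1 (log2 fold change -1.36) and was at -0.08 after co-culture (limma adjusted p = 0.122). Of 5 erasers of Polycomb marks tested, 3 were higher and 2 lower in young than in old MSCs, against 41.6% and 44.1% of all genes. Only Kdm6b, a demethylase of H3 lysine 27, passed after co-culture, where 20.6% of all genes were lower. It fell by 0.18 on the log2 scale (limma adjusted p = 0.00725). Kdm6a, its relative, was higher in young MSCs (0.92).

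The Ink4 locus, a Polycomb target with the cell cycle inhibitors Cdkn2a and Cdkn2b, split as well. Cdkn2a was at 17851 ± 600 in young MSCs, 6040 ± 319 in old MSCs and 5855 ± 403 in rejuvenated old MSCs (SD, n = 6), with a log2 fold change of 1.56 for young minus old MSCs and -0.05 after co-culture (limma adjusted p = 0.412). Cdkn2b ran the other way between young and old MSCs, at 1794 ± 61.1, 5661 ± 189 and 4219 ± 254 in the same order. It fell after co-culture by 0.43 on the log2 scale (limma adjusted p = 6.26e-09), and young minus old MSCs stood at -1.66.

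Most genes listed here as cofactors of DNA methylation were higher after co-culture. Of 8 listed, 6 were tested and 5 of them rose, against 21% of all genes, with a median log2 fold change of 0.20. The 5 include Trdmt1, which methylates transfer RNA and is no cofactor in the strict sense, at 0.24 (limma adjusted p = 0.00964). Uhrf2, a relative of Uhrf1, rose by 0.16 (limma adjusted p = 9.17e-05). Usp7, which stabilises Dnmt1, did not pass at 0.02 (limma adjusted p = 0.573). The count was the same without replicate 1 of rejuvenated old MSCs. Zfp57, which keeps imprinted regions methylated, was at 4037 ± 142 in young MSCs, 850 ± 42.8 in old MSCs and 1047 ± 125 in rejuvenated old MSCs (SD, n = 6, log2 fold change 0.29 after co-culture, limma adjusted p = 0.000238). Hells, a chromatin remodeller, rose by 0.28 (limma adjusted p = 0.0168), and Trim28, the partner of Zfp57, rose by 0.12 (limma adjusted p = 0.00216). Between young and old MSCs the list divided, 3 higher and 3 lower in young MSCs, against 41.6% and 44.1% of all genes. Of 8 readers of methylated CpG, 2 were higher and 1 lower after co-culture, against 21% and 20.6% of all genes. Mbd2 rose from 2741 ± 144 to 3460 ± 232 (0.34, limma adjusted p = 1.14e-06). In young against old MSCs 4 readers were higher and 2 lower, against 41.6% and 44.1% of all genes, with Mbd3 at 1.15.

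The partners of Tet enzymes and of base repair moved both ways. After co-culture 4 of 10 were higher and 4 lower (median -0.01), against 21% and 20.6% of all genes. In young against old MSCs 6 were higher and 3 lower (median 0.48), against 41.6% and 44.1%. Gadd45g, a stress-induced gene tied to demethylation, was at 2149 ± 38.2 in young MSCs, 1736 ± 99.6 in old MSCs and 3000 ± 333 in rejuvenated old MSCs (SD, n = 6), a rise of 0.78 (limma adjusted p = 1.2e-10). Its relative Gadd45a fell by 0.31 on the log2 scale (limma adjusted p = 0.00013) and was higher in young than in old MSCs (2.53). Gadd45b rose by 0.41 (limma adjusted p = 2.31e-05) and was also higher in young than in old MSCs (1.60). Idh1, which makes the 2-oxoglutarate that Tet enzymes use, was at 1719 ± 98.9, 6786 ± 70.0 and 4701 ± 309, a log2 fold change of -0.53 after co-culture (limma adjusted p = 6.26e-10). Idh2, which makes it as well, went the other way, at 5744 ± 131, 2891 ± 46 and 3308 ± 177. Its log2 fold change was 0.19 after co-culture (limma adjusted p = 3.44e-05) and 0.99 for young minus old MSCs. Cxxc4, which binds Tet2, fell from 26.1 ± 4.97 to 10.9 ± 4.08 (log2 fold change -1.24, limma adjusted p = 0.000815), toward the 8.53 ± 3.20 of young MSCs. Of 6 genes of methyl donor supply, 3 were lower after co-culture (median -0.11), against 20.6% of all genes. Among them were Mat2a, which makes S-adenosylmethionine, at -0.18 (limma adjusted p = 0.0148) and Mtr, methionine synthase, at -0.19 (limma adjusted p = 0.0385). Without replicate 1 of rejuvenated old MSCs 4 were lower.

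Germline genes that DNA methylation is known to silence in somatic cells were mostly low, and 4 of 14 passed the filter on low values. Of these, 2 were higher in young than in old MSCs, against 41.6% of all genes. Taf7l was at 102 ± 23.7 in young and 1.01 ± 0.917 in old MSCs, and Sycp1, of the synaptonemal complex, at 65.2 ± 13.5 and 4.78 ± 1.23 (SD, n = 6). After co-culture Taf7l was at 2.45 ± 2.04 (limma adjusted p = 0.155) and Sycp1 at 8.77 ± 4.95 (limma adjusted p = 0.0629), neither of which passed. Both genes passed the filter through the young libraries alone, so their difference is a description.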

How the data were processed

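RNA from 18 mouse MSC libraries was sequenced and grouped by label into young, old and rejuvenated old MSCs (6 libraries per group). According to the study's methods, the authors mapped reads to mm10 (HISAT2), quantified genes (StringTie, featureCounts) and scaled the counts in DESeq2, and the processing notes name the same tools. Libraries were made with a stranded mRNA kit. Versions, annotation and the strand setting of the counting are not given in the sources used here. Each deposited value is a signal, a gene's read count in a library divided by 1 size factor per library, unpooled. All values were whole multiples of 1 step per library (100% within 0.01 read), so reads could be recovered. All 18 columns were used.

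The members, lists and tests were chosen with earlier results of these data known. log2(value + 1) was tested with limma 3.58.1 in R 4.3.3, all 3 groups in one fit, over the 14353 genes averaging 10 or more, and p-values were adjusted by Benjamini-Hochberg. From each list the genes named were mainly from the up to 4 with the largest change among those that passed in a comparison. Cdkn2a, Cdkn2b, Mki67, Pcna and Top2a were named in any case. Not all genes that this rule gives are named, and some others are, such as Usp7, Alpl and Idh2. Pairs of libraries within a group all differed by more than sampling noise. Ratios were tested by exact permutation of 924 splits with scipy 1.17.1. Positions come from RefSeq (GRCm38.p6), exon lengths from GENCODE, for 97.7% of tested genes. Alternatives were the pseudocount (0.5 and 10), the filter (none and 50), scaling, chromosome centring, 2-group fits, the replicate number as a block, a single prior variance, edgeR 4.0.16 and DESeq2 1.42.0 on recovered reads, an adjusted p under 0.01, and leaving out each library. Scripts were tested on simulated counts.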

Additional observations from a re-analysis of the deposited data

Results flagged for a closer look

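Of 168 groups of 6 libraries examined, 17 held a library far from the other 5 by Dixon's test at the 95% level, and chance flags about 1 in 20. Among the members, replicate 6 of rejuvenated old MSCs was high in Dnmt3a, with 1145 normalized counts, where the remaining libraries held 894 to 942. In young MSCs, replicate 1 was high in Ezh1 at 1322 and replicate 3 was high in Ezh2 at 1198, and replicate 5 had the lowest Tet3 to Tet2 ratio, 1.76. Replicate 1 of rejuvenated old MSCs stood out in 4 measures tied to transcripts of young MSCs: the young-only transcripts at 2.01% of the young mean, the endothelial markers summed to 422, Cd34 at 402 and Thy1 at 21.6. They are not separate, since Cd34 makes up most of that endothelial sum and Thy1 meets the rule of the young-only transcripts. Other libraries that stood out were young replicate 6 for Mki67 (1532) and for the summed Y-linked genes (5.15), young replicate 4 for Kdm6a (1006) and young replicate 1 for Kdm6b (1531). In old MSCs these were replicate 4 for Pcna (2417), replicate 5 for E2f2 (22.1) and replicate 1 for the summed osteoblast markers (123428). In rejuvenated old MSCs, replicate 6 was low in Cdkn2b (3725) and replicate 5 low in Rnf2 (2310).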

How the results depend on the processing

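Of 780 log2 fold changes of members under 26 alternatives and 3 comparisons, 767 kept their side of the threshold, and the other 13 were Uhrf1 in rejuvenated old against old MSCs. No value that passed its test changed sign. Of those near 0, Tet3 in young against old MSCs was below 0 in 3 alternatives (lowest -0.04), and Tet1 in rejuvenated old against old MSCs ran from -0.06 to 0.06. The count of members passing in that comparison was 1 in place of 2 without the filter, with the same total, with chromosome centring, with only the 2 groups compared, with a single prior variance and at an adjusted p under 0.01. Leaving out 1 library gave 1 to 2, with 1 without replicate 1, 4, 5 or 6 of old or replicate 1, 2 or 4 of rejuvenated old MSCs. Under these the log2 fold change of Uhrf1 was 0.14 to 0.21. The cause was not tested. The counts of 9 and 10 members in the comparisons with young MSCs did not change in any alternative. Same-numbered libraries did not deviate together (18 correlations from -0.152 to 0.074), so no pairing by number was detected. A pairing that left no shared deviation would not be seen this way. With the replicate number as a block, 5769, 12219 and 12210 genes passed in the 3 comparisons, and 2, 9 and 10 members. Depth limits Tet1 in young MSCs most, where 10 to 27 reads were counted.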

Other observations

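For each member the tested genes with the closest profile were found by the smallest root mean square difference over the 18 libraries between log2 profiles centred on their own means. Tet3 was closest to Mink1 (0.0871) and Herc2 (0.096). Herc2 was at 1785 normalized counts in young MSCs, 1749 in old MSCs and 1408 in rejuvenated old MSCs, and Mink1 at 2059, 2070 and 1723. Both were lowest in rejuvenated old MSCs, as Tet3 was. A shared pattern follows from how these genes were picked, here and for the other members. Uhrf1 was closest to Kntc1 (0.098), which acts at the spindle checkpoint, and Arhgap11a (0.106), and Kntc1 was at 123, 175 and 199 in the same order. Dnmt1 was closest to Carm1 (0.0534) and Tpr (0.0554), of which Carm1 lies on the same chromosome. Ezh2 was closest to Ftsj3 (0.0652) and Eri1 (0.0703), Ezh1 to Rpap1 (0.0551) and Gtf3c2 (0.0554), and Bmi1 to Abi1 (0.0517) and Ppp2r5e (0.0531). Dnmt3a was closest to Ripor1 (0.072) and Npr2 (0.0746), Dnmt3b to Terf2 (0.0955) and Camkk2 (0.0967), and Tet2 to Sh2b2 (0.0857) and Kmt2d (0.0871). The profile nearest to Tet1, Gpr153 at 0.256, was the least close of these.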
